A study of Homo sapiens with 4 samples.

Results

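A group of 9 microRNAs (miRNAs) typical of liver, muscle or red blood cells was followed in RPMI8226, an established human multiple myeloma line, and in the exosome fraction of its culture medium. The miRNAs were chosen by name, with earlier results of these data known, and they are 9 of the 377 human miRNA assays on the array card. They are the liver miRNA hsa-miR-122, the 5 muscle and heart miRNAs hsa-miR-1, hsa-miR-133a, hsa-miR-133b, hsa-miR-208 and hsa-miR-499-5p, and the 3 red cell assays hsa-miR-451, hsa-miR-486-3p and hsa-miR-486-5p. They were chosen because a plasma cell line should have little of them, as a check for RNA of other tissues in the medium. hsa-miR-206 was not analysed here, and the passenger strand hsa-miR-499-3p, which had a Ct of 35 in all 4 samples, was left out.

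The study had 4 samples, 1 in each group: the exosome fraction of medium from RPMI8226 cells kept for 24 h at 1% oxygen (hypoxia), that from cells kept for 24 h at 20% oxygen (normoxia), the hypoxic cells and the normoxic cells. Per the labels the hypoxic cultures were grown in degassed AIM-V, a medium sold as serum-free, and the labels used here do not say whether serum was added. The exosome fraction was precipitated from cleared and filtered medium with a polymer reagent, which also brings down other RNA carriers of the medium, and only its reverse transcription products were pre-amplified. No sample of medium without cells was analysed here, so RNA released by the cells and RNA that was in the medium from the start cannot be told apart. Each miRNA had 1 well per sample, and no value has a replicate error.

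The measurement was the threshold cycle (Ct) of quantitative PCR, the cycle at which fluorescence crosses a set level, so that a lower Ct means more template. The highest Ct in the deposited table is 35, which was read as not detected. Over all assays a Ct under 35 was found for 219 miRNAs in the hypoxic exosome fraction, 221 in the normoxic exosome fraction, 155 in hypoxic cells and 162 in normoxic cells. The lymphoid label of the line was set beside 7 lymphoid miRNAs (miR-150, miR-155, miR-142-3p, miR-142-5p, miR-146a, miR-146b-5p and miR-181a), and all 7 were detected in all 4 samples, at Ct 24.97 to 31.97 in hypoxic cells and 24.95 to 31.79 in normoxic cells. This does not single out the lymphoid lineage, since both miRNAs listed for platelets and myeloid cells were also detected in all 4 samples. So were 3 of 4 of a liver list, while the remaining lists were detected in cells in part or not at all. Of all 377 assays 138 were detected in all 4 samples.

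miRNAs are short RNAs that guide Argonaute proteins to partly matching sites in messenger RNAs, mainly through the seed at bases 2 to 8, and lower the output of those messages. miR-122 is the dominant miRNA of hepatocytes, where it represses genes of other lineages and supports cholesterol metabolism. miR-1 and miR-133a are made from shared primary transcripts in heart and skeletal muscle, where miR-1 favours differentiation and miR-133a restrains it in favour of growth of the precursor pool. miR-133b is their skeletal muscle relative, and miR-208 and miR-499-5p lie within myosin heavy chain genes and act on the balance of fast and slow myosins. miR-451 is abundant in maturing and mature red cells and is cut by Argonaute 2 in place of Dicer, and miR-486 is abundant in red cells and also made in muscle. In blood plasma these miRNAs are widely used as markers of liver injury, muscle injury and broken red cells.

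Mature sequences from RefSeq (GRCh38.p14) matched 6 of the 9 miRNAs by name, and they are shown because miR-133a and miR-133b are nearly the same while their assays gave different results, and because the other 4 form pairs with seeds alike but for 1 base. The seed (bases 2 to 8) is in capitals, and each sequence runs 5′ to 3′.
miR-122-5p: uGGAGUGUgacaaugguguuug
miR-1-3p: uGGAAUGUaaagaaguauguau
miR-133a-3p: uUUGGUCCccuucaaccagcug
miR-133b: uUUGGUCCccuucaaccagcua
miR-208a-3p: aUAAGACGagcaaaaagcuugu
miR-499a-5p: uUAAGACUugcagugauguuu

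Counting positions from 1 at the 5′ end, miR-133a and miR-133b had the same seed and were the same at 21 of 22 positions, with G22A as the 1 difference from miR-133a to miR-133b. The seeds of miR-122 and miR-1 differed at 1 position (G5A, miR-122 to miR-1), though the miRNAs were the same at only 11 of 22 positions. The seeds of miR-208a and miR-499a-5p also differed at 1 position (G8U, miR-208a to miR-499a-5p). In the RefSeq gene table miR-1 and miR-133a each come from 2 genes that lie side by side, MIR1-1 with MIR133A2 on chromosome 20 and MIR1-2 with MIR133A1 on chromosome 18 inside the span of MIB1. MIR133B neighbours MIR206 on chromosome 6, MIR208A lies within the span of MYH6 on chromosome 14, and MIR499A within that of MYH7B on chromosome 20. MIR451A is close to MIR144 on chromosome 17.

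Of the 9 miRNAs 5 were seen in at least 1 sample, the muscle miRNAs miR-1, miR-133a, miR-133b and miR-499-5p and the red cell miRNA miR-451. A Ct under 35 was recorded for 2 of the 9 in the hypoxic exosome fraction (58.1% of all assays), 5 in the normoxic exosome fraction (58.6% of all), 1 in hypoxic cells (41.1% of all) and 0 in normoxic cells (43.0% of all). Over all 4 samples 4 of the 9 were never detected, miR-122, miR-208, miR-486-3p and miR-486-5p, against 33.4% of all assays. The count in the normoxic exosome fraction is close to the share of the whole card, and the counts of 2, 1 and 0 in the other samples rest on 1 well per assay and were not tested against it.

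**Figure D1:**
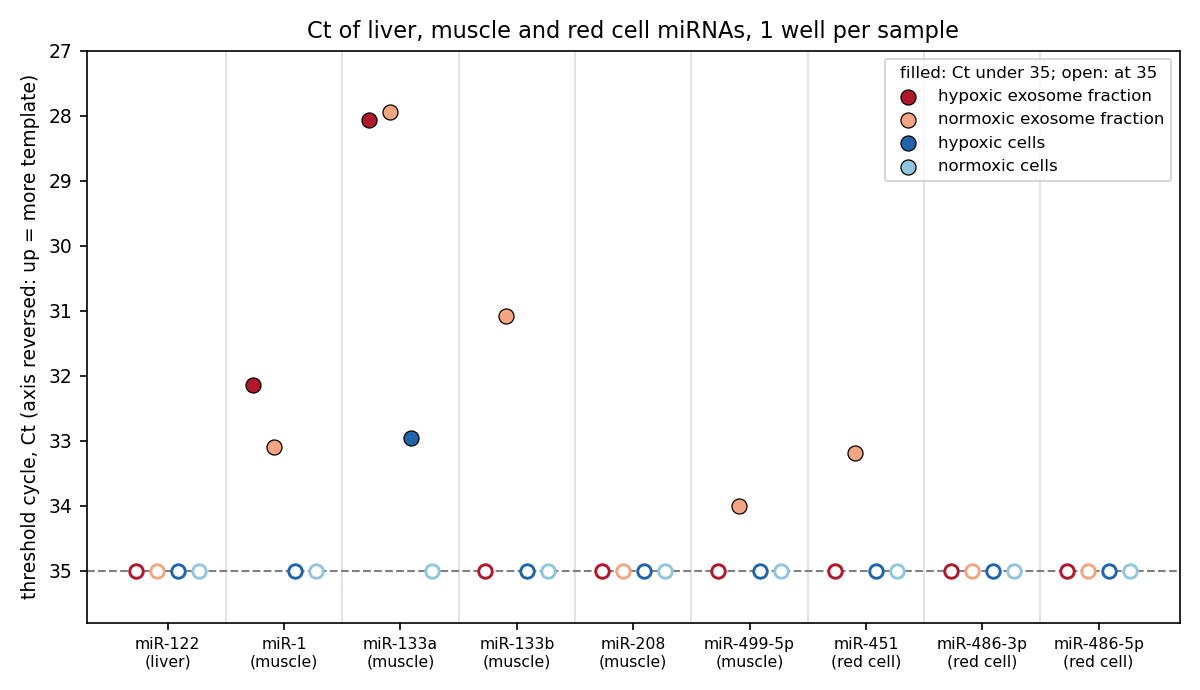
Ct (y axis, reversed so that more template is higher) of the 9 miRNAs (x axis, with their tissue) in the hypoxic exosome fraction, the normoxic exosome fraction, hypoxic cells and normoxic cells, 1 well per point; filled points are under 35, open points stand at 35 (dashed line). miR-133a, at 28.07 and 27.94 in the hypoxic and normoxic exosome samples, stands above all other points, and 4 miRNAs have open points only.

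Of the liver group, miR-122 stood at 35 in the hypoxic exosome fraction, the normoxic exosome fraction, the hypoxic cells and the normoxic cells alike. The other 3 miRNAs of the liver list, miR-192, miR-194 and miR-885-5p, of which miR-192 and miR-194 are also made in gut and kidney, were detected in all 4 samples. In the exosome fraction these 3 stood at Ct 26.97 to 27.97 in hypoxia and 26.82 to 27.99 in normoxia, and in cells at 32.84 to 33.98 in hypoxia and 34.55 to 34.97 in normoxia. The liver list was therefore detected only in part, without its defining member, and in normoxic cells only close to the ceiling of 35.

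Of the muscle group, miR-133a gave the earliest signal of all 9 miRNAs. It had a Ct of 28.07 in the hypoxic exosome fraction and 27.94 in the normoxic one, and 32.96 in hypoxic cells, while normoxic cells stood at 35. Of the assays detected in the same sample, 132 had a lower Ct than miR-133a in the hypoxic exosome fraction, 124 in the normoxic exosome fraction and 114 in hypoxic cells. The miRNA was thus in the middle range of the exosome fraction and among the later assays of hypoxic cells.

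miR-1, which shares its primary transcripts with miR-133a, had a Ct of 32.1 in the hypoxic exosome fraction and 33.1 in the normoxic one, and stood at 35 in both cell samples. With this it was 1 of the 50 miRNAs (13.3% of all assays) that were detected in both exosome samples and in neither cell sample, and the only 1 of the 9. Ct values of different assays are not compared as amounts here, because the assays differ in efficiency.

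miR-133b had a Ct of 31.1 in the normoxic exosome fraction and stood at 35 in the hypoxic exosome fraction and in both cell samples. miR-499-5p showed the same pattern with a later Ct of 34.01 in the normoxic exosome fraction. miR-208 stood at 35 in all 4 samples, as did miR-208b, its relative in the neighbouring myosin gene. miR-133a and miR-133b, which differ in their last base, therefore gave unlike patterns over the 4 samples, and how far each assay reads the other miRNA was not tested.

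Of the red cell group, miR-451 had a Ct of 33.2 in the normoxic exosome fraction and stood at 35 in the other 3 samples. Both arms of miR-486 stood at 35 in all 4 samples. Of the 2 miRNAs listed for platelets and myeloid cells, miR-126 had a Ct of 21.97 in the hypoxic and 21.65 in the normoxic exosome fraction, and miR-223 25.95 in the hypoxic and 25.55 in the normoxic one. Both were also detected in cells, miR-126 at 25.97 in hypoxia and 25.98 in normoxia and miR-223 at 31.94 in hypoxia and 31.71 in normoxia.

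The first comparison set hypoxia against normoxia in the exosome fraction, with the spike-in miRNA ath-miR159 as normalizer. Only miR-1 and miR-133a of the 9 had a Ct under 35 in both samples, and 3 others were seen in normoxia only. The log2 change is the negative difference in normalized Ct, hypoxia over normoxia, and 2-fold was the threshold. miR-1 was 2.01-fold higher in hypoxia (log2 change 1.00), at the threshold itself and 8th from the top of the 203 miRNAs measured in both samples. miR-133a was 1.06-fold lower in hypoxia (log2 change -0.08), close to the median of all 203 (-0.07), and its sign turned with the median Ct as normalizer (0.12). Of the 203 miRNAs 8 were at least 2-fold higher (3.94%) and 7 at least 2-fold lower (3.45%), against 1 and 0 of the 2 measured here.

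The spread of these log2 changes grew with Ct, and miR-1 lay in the range where it was widest. Over the 129 miRNAs with a mean Ct under 28 the SD of the log2 change was 0.26, and none was past 2-fold. Over the 31 from 28 to 30, which include miR-133a, the SD was 0.38 and again none was past 2-fold. Over the 23 from 32 to 35, which include miR-1, the SD was 1.28, with 4 at least 2-fold higher and 6 at least 2-fold lower. The change of miR-1 was smaller than 1 SD of the assays in its own Ct range, and was 0.95 on the log2 scale without a normalizer. The change of miR-133a was likewise smaller than the SD of its range. For miR-1 and miR-133a, as for 202 of the 203, at least 1 of both Ct values lay within 0.1 of a whole cycle.

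miR-133b, miR-451 and miR-499-5p were detected in the normoxic exosome fraction only, as were 18 of all assays (4.77%), and none of the 9 was detected in the hypoxic one only, as were 16 of all (4.24%). Computed against Ct 35, miR-133b was at least 14.6-fold lower in hypoxia, miR-451 at least 3.38-fold lower and miR-499-5p at least 1.91-fold lower. By the size of this bound, from the largest, miR-133b had rank 4, miR-451 rank 11 and miR-499-5p rank 15 among the 18.

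Such a loss was more frequent among all assays the later the normoxic Ct. The counts by Ct range include the miRNAs named with them. Of the assays with a normoxic Ct from 30 to 32, among them miR-133b, 4 of 26 stood at 35 in the hypoxic exosome fraction. From 32 to 34, the range of miR-451 and miR-1, it was 9 of 29. From 34 to 35, the range of miR-499-5p, it was 5 of 7. With the 9 miRNAs left out, 2 of the 26 assays within 1 cycle of miR-133b in normoxia stood at 35 in the hypoxic exosome fraction. Around miR-451 it was 9 of 25, and around miR-499-5p 8 of 16. The count near miR-133b depends on the window, which was set after the data were seen. miR-509-5p, also at 35 in the hypoxic exosome fraction, lay just outside it with a normoxic Ct of 30.08. No assay with a normoxic Ct under 30 was lost, which holds for the 129 under 28 and the 30 from 28 to 30. In the other direction, 3 of the 23 assays with a hypoxic Ct from 30 to 32, 6 of 25 from 32 to 34 and 4 of 7 from 34 to 35 stood at 35 in normoxia, so that losses occurred both ways at these cycles. Under a hypoxic Ct of 30 the losses in normoxia were few, at 2 of 130 under 28 and 1 of 34 from 28 to 30. The part of late-cycle dropout in the pattern of the 3 miRNAs was not tested, since each rests on 1 well.

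**Figure D2:**
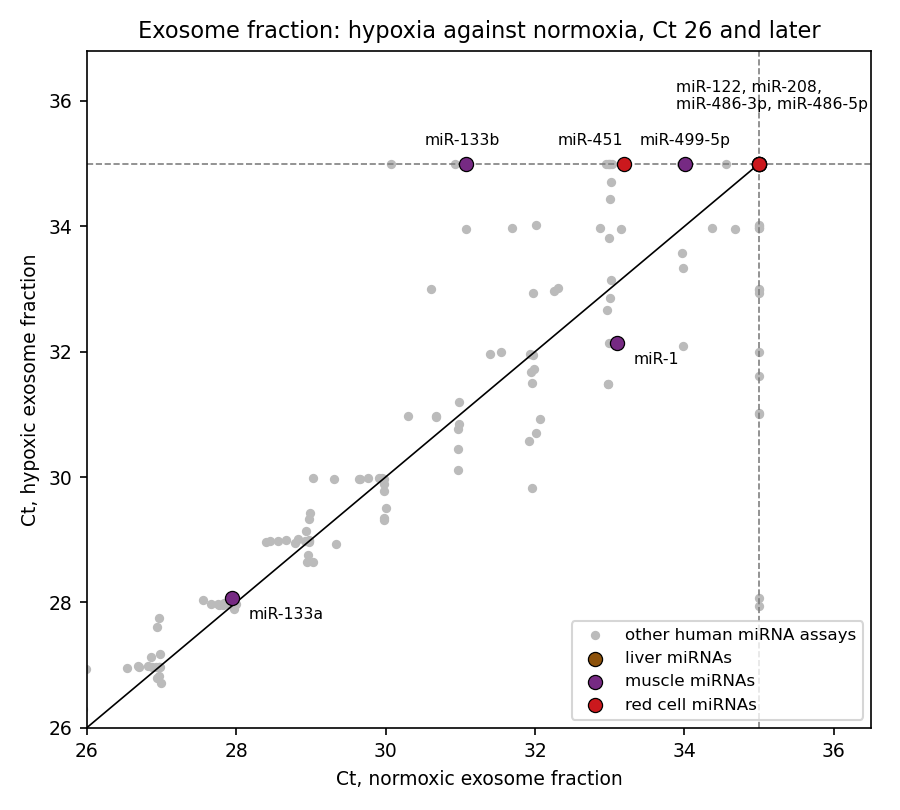
Ct in the hypoxic exosome fraction (y axis) against Ct in the normoxic exosome fraction (x axis), from Ct 26 on; each point is 1 assay, the solid line marks equal Ct and the dashed lines mark 35. miR-133a lies on the line, miR-1 below it, and miR-133b, miR-451 and miR-499-5p at 35 in hypoxia, while miR-122, miR-208 and both miR-486 assays share the corner point at 35 in both; the grey points spread wider from Ct 30 on.

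The second comparison set hypoxia against normoxia in cells, normalized to the mean of 4 wells of U6. None of the 9 miRNAs was measured in both cell samples, so none could be at least 2-fold higher (7.48% of 147 measured miRNAs) or lower (6.12%). miR-133a was seen in hypoxic cells only, like 8 of all assays (2.12%), and was at least 4.11-fold higher in hypoxia when computed against Ct 35. This bound had rank 2 by size among those 8, after that of miR-455-3p. None of the 9 was seen in normoxic cells only, as were 15 of all assays (3.98%). In hypoxic cells 6 of the 40 assays with a Ct from 32 to 34, miR-133a among them, stood at 35 in normoxic cells, and in normoxic cells 8 of 45 in that range stood at 35 in hypoxic cells. In the exosome fraction miR-133a differed by 0.13 cycles between hypoxia and normoxia.

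The third comparison set the exosome fraction against cells. No control RNA was detected in both, so each sample was centred on its median Ct over the 138 miRNAs detected in all 4 samples. These medians were 23.99 in the hypoxic and 23.96 in the normoxic exosome fraction and 30.97 in hypoxic and 30.91 in normoxic cells, an offset of 6.98 cycles in hypoxia and 6.95 in normoxia. With that offset a Ct of 28.02 in the hypoxic and 28.05 in the normoxic exosome fraction stands level with 35 in cells. A miRNA with a later exosome Ct can stand at 35 in cells without being richer in the exosome fraction. miR-1, miR-133b, miR-451 and miR-499-5p were all later than this, so their absence in cells sets no direction between exosome fraction and cells.

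miR-133a alone of the 9 was near enough to that limit to be compared. In hypoxia its exosome level was 4.28-fold lower than its cell level after centring (log2 -2.10). In normoxia, with cells at 35, the exosome level was at least 1.08-fold higher (log2 bound 0.11). The hypoxic value changed sign with the centre, to a log2 of 0.87 when each sample was centred on all of its own detected miRNAs, and stood at 4.89 with no centring. The normoxic bound was 2.90 and 7.06 under the same settings, so no direction is given. Of the 9 only miR-1 and miR-133a were among the 212 assays with a Ct under 35 in either compartment in each oxygen condition. Neither reached a 4-fold higher level in exosomes than in cells in both conditions (2.36% of the 212). For miR-1 this says nothing, because its lower bounds lay far below 0 (log2 -4.12 in hypoxia and -5.04 in normoxia). A level at least 4-fold lower in both (14.6% of the 212) could not be found for miR-1 or miR-133a, because their cell values at 35 give lower bounds only.

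Assays of like exosome Ct were set beside the 9 to show how often cells stood at 35. Of the 32 other assays within 1 cycle of miR-133a in the hypoxic exosome fraction, 9 stood at 35 in hypoxic cells, and of the 27 in the normoxic one 5 stood at 35 in normoxic cells, as miR-133a did. Around miR-133b in normoxia it was 21 of 26 assays, around miR-451 24 of 25 and around miR-499-5p 14 of 16. Around miR-1 it was 19 of 23 in hypoxia and 24 of 25 in normoxia. For these 4 a Ct of 35 in cells was thus the rule among assays with a like exosome signal, while for miR-133a it was not.

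**Figure D3:**
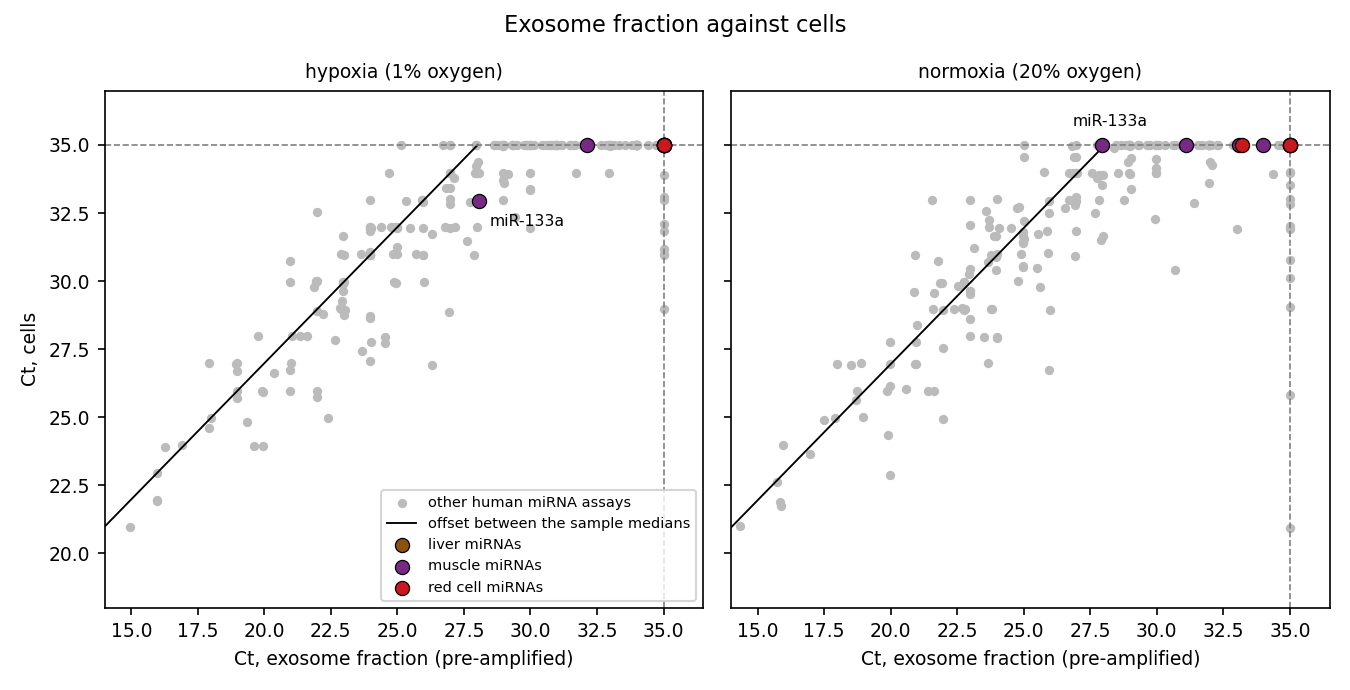
Ct in cells (y axis) against Ct in the exosome fraction (x axis) in hypoxia (left) and normoxia (right), 1 point per assay; the solid line is the offset between the sample medians (6.98 and 6.95 cycles) and the dashed lines mark 35. miR-133a lies below the line in hypoxia and at its upper end in normoxia, and the other detected muscle and red cell miRNAs lie to the right of the line's end, where most grey points also stand at 35 in cells.

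The assays whose 4 Ct values were nearest to each miRNA, by Euclidean distance over the 4 samples with 35 at the ceiling, are given as a description. Nearest to miR-133a were miR-885-5p (1.03 cycles), miR-204 (1.29 cycles) and miR-301b (1.45 cycles). Nearest to miR-1 were miR-519d (0.10 cycles), miR-570 (0.54 cycles) and miR-224 (0.66 cycles), all at 35 in both cell samples. miR-133b was nearest to miR-296-3p (0.03 cycles), miR-146b-3p (0.15 cycles) and miR-509-5p (1.00 cycles), miR-451 to miR-521 (0.04 cycles), miR-125a-3p (0.19 cycles) and miR-495 (0.21 cycles), and miR-499-5p to miR-876-3p (0.01 cycles), miR-519e (0.02 cycles) and miR-654-3p (0.05 cycles). A pattern with a single Ct under 35 has little to set it apart, and these distances describe 4 wells each.

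Lists for other tissues were set beside the 9 miRNAs, all of them chosen with earlier results of these data known. The muscle and heart list, with 6 assays on the card, had 2 detected in the hypoxic exosome fraction, 4 in the normoxic one, 1 in hypoxic cells and 0 in normoxic cells, and the red cell list 0, 1, 0 and 0 of 3 in the same order. The nervous system list had 7 of 8 detected in the hypoxic exosome fraction, 6 in the normoxic one and 3 in each of the cell samples. The embryonic list had 3 of 6 in the hypoxic exosome fraction, 1 in the normoxic one, 1 in hypoxic cells and 2 in normoxic cells. Of the liver list 3 of 4 were detected in all 4 samples. Over all assays the shares detected were 58.1% in the hypoxic and 58.6% in the normoxic exosome fraction, 41.1% in hypoxic cells and 43.0% in normoxic cells. The list counts are small, some lie near these shares, and they were not tested against them. Over the miRNAs of a list measured in both exosome samples, the median log2 change in hypoxia was 0.46 for the 2 muscle miRNAs, -0.05 for 3 of the liver list, 0.02 for 6 of the nervous system list and -0.16 for the 7 lymphoid miRNAs, against -0.07 for all 203. Past 2-fold among the list members measured in both exosome samples was miR-1 alone, and among those measured in both cell samples miR-194 alone (log2 change 2.13). The Ct of miR-194 in normoxic cells was 34.97, close to the ceiling of 35.

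**Figure D4:**
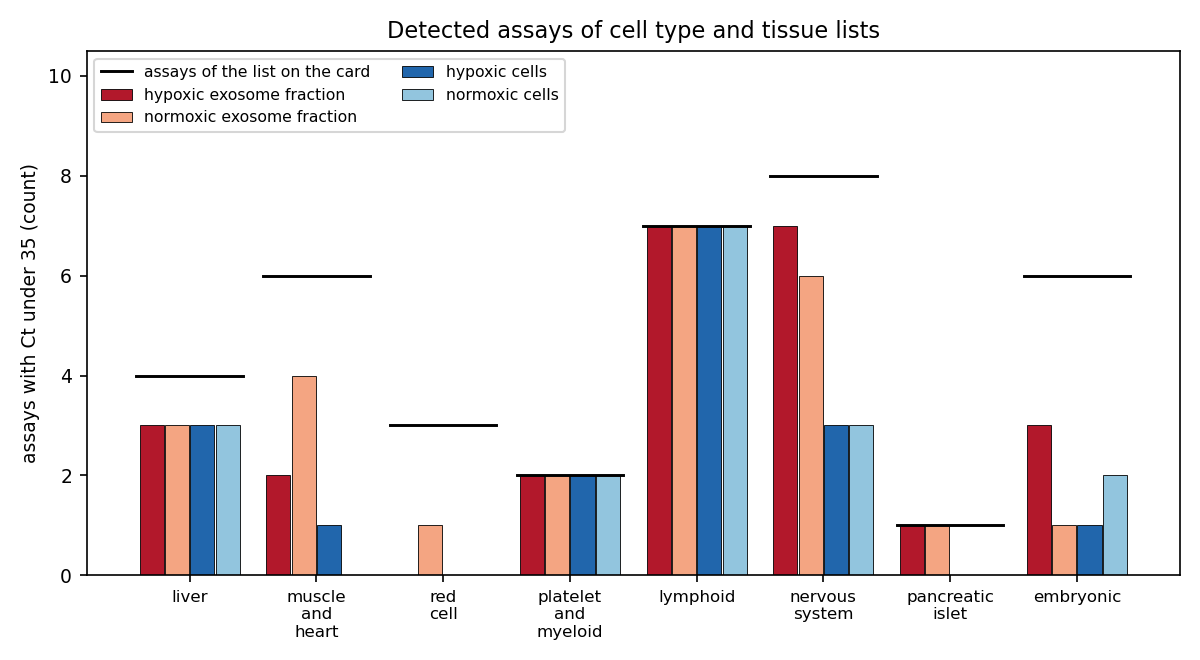
Number of assays with a Ct under 35 (y axis) in each tissue or cell type list (x axis), with 1 bar per sample from the hypoxic exosome fraction to normoxic cells; the black line is the number of assays of the list on the card. All 7 lymphoid assays were detected in every sample, against 0 to 4 of 6 for muscle and heart and 0 to 1 of 3 for red cells. Over all assays the shares were 58.1% and 58.6% in the hypoxic and normoxic exosome fraction and 41.1% and 43.0% in hypoxic and normoxic cells.

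The authors' deposited table gives a ratio of hypoxia over normoxia for all 9 miRNAs, also where wells stood at 35. In cells it lists 4.11 for miR-133a and 0.9965 for the other 8, which is what the U6 wells alone give for 2 wells at 35. In the exosome fraction the authors' deposited table lists 2.01 for miR-1, 0.947 for miR-133a, 0.0685 for miR-133b, 0.296 for miR-451, 0.522 for miR-499-5p and 1.0376 for the 4 that stood at 35 in both samples. With 35 taken as a measured Ct the values computed here differed from the authors' by at most 0.00065 on the log2 scale. The authors' ratios for miR-133b, miR-451 and miR-499-5p and the ratio for miR-133a in cells are therefore the bounds given above, with 35 in the place of a measurement.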

How the data were processed

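The authors measured miRNAs with TaqMan array cards, and per the labels' protocols only exosome products were pre-amplified. The deposited Ct values are a score of 1 well each, not normalized by the authors, and a Ct of 35 was read as not detected; the labels and headers do not say how 35 was set. The authors' deposited ratio per assay was made with Data Assist version 3.1, per the series' design text, with a U6 RNA and the spike-in as invariant controls. Here, log2 changes were computed from the Ct values in Python 3.11.15 with pandas 2.3.3, with U6 (4 wells, SD 0.15 cycles in normoxic cells) in cells and ath-miR159 in the exosome fraction. A miRNA at 35 in 1 sample of a pair has a bound. A Ct carries no count or depth, so no counting interval applies. With 1 sample per group there was no test and no p-value. The fold calls were tested on simulated data. Bounds against Ct 35, the normalizers and the wider spread at late Ct were not part of that test. The miRNAs and lists were chosen with earlier results of these data known: all 9 miRNAs are named, the 3 nearest assays of each detected one, and the list members needed beside them. hsa-miR-208, which the choice by name holds, is counted among the 9. Alternatives changed the normalizer, the detection limit, the threshold and the centre. Ct ranges and windows of 1 cycle were set after the data were seen.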

Additional observations from a re-analysis of the deposited data

Results flagged for a closer look

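The oxygen log2 changes of miR-133a had opposite signs in exosome fraction and cells. In the exosome fraction its log2 change was -0.08, hypoxia over normoxia, and in cells it was at least 2.04, because normoxic cells stood at 35. The difference, exosome fraction minus cells, was -2.12 or further below 0. It was not tested, since each compartment has 1 sample per oxygen condition, and with the median normalizer the exosome value was 0.12.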

How the results depend on the processing

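No paired analysis was possible because each group is 1 sample. Among the recomputed counts of the 9 miRNAs, 6 moved by more than 1.5 times. The counts past 2-fold in cells and the counts lower in the exosome fraction than in cells were fixed at 0 by what was detected, and say nothing about stability. With a Ct under 32 as the limit, 1 was detected in the hypoxic exosome fraction, 2 in the normoxic one and 0 in hypoxic cells, and in the exosome fraction 0 were at least 2-fold higher in hypoxia. That last count was also 0 without a normalizer, where miR-1 stood at 0.95. Of the recomputations of single miRNAs' values, 11 moved by less than the U6 well SD of 0.15 cycles and 17 by more. The other 2, both of the hypoxic exosome over cell value of miR-133a, turned the sign of a value past 4-fold. Sign changes of bounds and of values not past the threshold are among the 17, such as miR-133a in the exosome fraction (-0.08 to 0.12). Each setting shifted all values of a pair of samples by the same amount, so these are not independent results. Without centring the exosome over cell bounds of miR-1, miR-133b, miR-451 and miR-499-5p, which set no direction as reported, lay above 0 (log2 0.99 to 3.92). Without centring, 1 miRNA (miR-133a) passed 4-fold toward the exosome fraction in both conditions, and that hypoxic log2 value, -2.10 as reported, was 0.87 with each sample's own median and 4.89 without centring, while its normoxic bound, 0.11 as reported, was 2.90 and 7.06. Centring on fewer or more assays changes the offset by construction. Values without centring still hold the offset of 6.98 cycles in hypoxia and 6.95 in normoxia between exosome fraction and cells. Only exosome products were pre-amplified, so the values without centring set no direction. The median normalizer moved every exosome log2 change by 0.20, which left miR-1 at 1.20 and the bound of miR-133b at -3.67. In cells the bound of miR-133a ran from 1.89 to 2.10 over 6 settings, among them U6 with each of its 4 wells left out in turn. These settings share the same 1 well of miR-133a per sample. Precision is limited by 1 well per miRNA, by signal near the ceiling and by 1 sample per group.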

Other observations

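Some miRNAs of other tissues were among the 50 assays (13.3% of all) with the pattern of miR-1, detected in both exosome samples and at 35 in both cell samples. Among the lists used here these were the brain miRNAs miR-124 (Ct 29.5 in hypoxia and 30.0 in normoxia), miR-219-5p (28.6 and 29.0 in the same order) and miR-218 (31.96 and 31.93), and the pancreatic islet miRNA miR-375 (27.95 and 27.77). None of the 4 was past 2-fold between hypoxia and normoxia, with log2 changes of 0.55, 0.36, 0.03 and -0.13 in the same order. miR-124, miR-219-5p and miR-218 were later than the exosome Ct that stands level with 35 in cells (28.02 in hypoxia and 28.05 in normoxia). Their absence in cells therefore sets no direction, and miR-375 was only slightly earlier than that Ct.

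The Ct values lay close to whole cycles more often than evenly spread values would. Of the 757 Ct values under 35, 480 (63.4%) were within 0.1 of a whole cycle, against 20.0% for an even spread, and of the 8 values of the miRNAs described here 6 were. Of the 350 pairs of hypoxic and normoxic values measured in the same compartment, 349 (all but miR-99b in the exosome fraction) had at least 1 value within 0.1 of a whole cycle, where an even spread of independent values would give 36.0%. The 6 values were all 3 of miR-133a, the normoxic exosome value of miR-1 and the single values of miR-133b and miR-499-5p.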
